A study of Mus musculus with 6 samples.

Results

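The genes described here are 43 genes of DNA replication and S phase, chosen by name from a list: the origin recognition complex, the licensing factors, the MCM helicase and its activators, the replicative polymerases with their clamp, the single-strand binding protein, and enzymes that supply nucleotides or finish the new strand. All 43 were among the 26814 gene symbols of the count table, and 42 of them were among the 15009 genes that had at least 1 CPM (reads of a gene scaled to a common library size, with TMM factors) in at least 3 libraries and were tested. The libraries came from the top lip of adult female mice on a C57BL/6J background, 3 wild type (WT1 to WT3) and 3 carrying the Gtf2ird1 tm1Hrd allele (KO1 to KO3), with 1 mouse and 1 paired-end mRNA library each. No other alteration and no treatment is named for either genotype, and which deletion the allele carries is not given in the sample labels. Top lip is a mixed tissue, and in a bulk sample fewer cells of a type and less RNA per cell cannot be told apart.

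Before S phase, the origin recognition complex marks replication origins and, with Cdc6 and Cdt1, loads the ring-shaped MCM helicase. At the onset of S phase the helicase is activated by Cdc45 and the GINS complex, primase lays down short primers, and the delta and epsilon polymerases copy the strands while held by the Pcna clamp. In skin and oral epithelium these genes are used mainly by dividing basal and hair matrix cells, and many of them are transcribed under E2F factors, whereas genes of mitosis are switched on later in the cycle, in many cases through a promoter element called CHR.

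Depth and library differences were as follows. Total counts on genes lay between 20164081 and 29491767, TMM factors between 0.952 and 1.07, and 3 counts in a library amounted to 0.0986 to 0.154 CPM. The targeted gene Gtf2ird1 had 78.2, 70.2 and 70.7 CPM in WT1 to WT3 and 166, 162 and 144 CPM in KO1 to KO3. The targeted gene thus had more counts under the KO label, not fewer (adjusted p = 0.0018 in edgeR's quasi-likelihood test with Benjamini-Hochberg adjustment, log2 difference 1.11 ± 0.13 standard error), and all directions here are those of the labels. KO3 stood apart from KO1 and KO2: over all tested genes its log2 CPM correlated with theirs at r = 0.957 and 0.969, close to its r of 0.948 to 0.955 with the WT libraries, whereas KO1 and KO2 correlated at r = 0.984. The defining markers of epithelium were abundant in all 6 libraries, with the summed level of 7 basal keratinocyte markers between 10798 and 11788 CPM in WT and between 10204 and 12054 CPM in KO. The 5 T cell markers tested summed to only 14.6 to 28.2 CPM.

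Promoter sequences are shown first, to set the replication genes beside the mitosis genes with which they are compared. RefSeq promoter windows of GRCm38.p6, from 250 bases before to 50 bases after the start, were at hand for 36 of the 43 genes. An E2F sequence (TTTCCCGC, TTTGGCGC, TTTCGCGC or TTTGCCGC, either strand) lay in at least 1 window of 15 of the 36, or 41.7%, against 4.25% of the 10864 tested genes with a window and 3 of 43 mitosis genes, or 6.98%. A CHR sequence (TTTGAA or TTCGAA, either strand) lay in 7 of 36 replication genes, or 19.4%, 33 of 43 mitosis genes, or 76.7%, and 16.5% of the tested genes, so the order of the lists was turned around. CCAAT, a common promoter element, lay in 66.7% of the replication genes, 74.4% of the mitosis genes and 42.1% of the tested genes. These shares describe letters in a window and not binding. Windows with an E2F match are printed, for 2 MCM subunits and the catalytic subunit of polymerase alpha, with the match in capitals.
Mcm6: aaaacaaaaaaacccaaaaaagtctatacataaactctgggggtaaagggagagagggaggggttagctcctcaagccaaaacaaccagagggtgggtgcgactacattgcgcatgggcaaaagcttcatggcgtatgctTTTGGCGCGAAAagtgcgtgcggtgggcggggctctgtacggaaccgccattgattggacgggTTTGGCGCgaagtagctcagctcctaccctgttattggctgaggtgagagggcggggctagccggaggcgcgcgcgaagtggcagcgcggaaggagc
Mcm5: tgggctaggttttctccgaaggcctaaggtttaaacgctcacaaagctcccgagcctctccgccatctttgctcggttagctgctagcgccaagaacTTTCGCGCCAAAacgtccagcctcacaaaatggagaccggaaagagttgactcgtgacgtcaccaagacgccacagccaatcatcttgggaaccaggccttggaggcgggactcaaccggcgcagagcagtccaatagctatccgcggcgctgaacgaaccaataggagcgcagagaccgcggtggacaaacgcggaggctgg
Pola1: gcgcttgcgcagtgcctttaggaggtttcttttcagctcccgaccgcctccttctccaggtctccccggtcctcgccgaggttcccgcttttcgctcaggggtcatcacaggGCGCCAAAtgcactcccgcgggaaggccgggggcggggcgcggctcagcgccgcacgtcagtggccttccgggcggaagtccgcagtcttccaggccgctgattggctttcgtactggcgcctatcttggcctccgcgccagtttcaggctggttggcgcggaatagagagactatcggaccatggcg
They lie at chr1:128359656-128359955 (- strand), chr8:75109259-75109558 (+ strand) and chrX:93632106-93632405 (- strand). The Mcm6 window held 3 matches, beginning 110, 106 and 47 bases upstream of the start, of which the first 2 overlap on opposite strands. The Mcm5 window held 2 overlapping ones 153 and 149 bases upstream, and the Pola1 window held 1 at 138 bases upstream.

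The windows of Rfc1 and Rrm1, the replication genes with the lowest p-values in the comparison of the genotypes, held none of these E2F letters and are printed in lower case for comparison.
Rfc1: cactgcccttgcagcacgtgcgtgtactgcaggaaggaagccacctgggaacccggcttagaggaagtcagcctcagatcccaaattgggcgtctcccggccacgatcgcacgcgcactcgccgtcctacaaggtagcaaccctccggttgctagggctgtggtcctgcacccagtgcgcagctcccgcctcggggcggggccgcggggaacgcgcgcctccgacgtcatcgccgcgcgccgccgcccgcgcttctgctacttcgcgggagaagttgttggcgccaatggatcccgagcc
Rrm1: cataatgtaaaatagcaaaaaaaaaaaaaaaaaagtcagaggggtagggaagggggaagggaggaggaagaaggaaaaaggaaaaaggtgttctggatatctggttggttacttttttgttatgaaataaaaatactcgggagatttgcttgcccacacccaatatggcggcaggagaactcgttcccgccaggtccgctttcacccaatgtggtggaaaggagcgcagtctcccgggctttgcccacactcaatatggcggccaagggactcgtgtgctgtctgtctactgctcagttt
They lie at chr5:65335590-65335889 (- strand) and chr7:102441445-102441744 (+ strand). The window of Top2a, a mitosis gene, is shown for its CHR matches, in capitals.
Top2a: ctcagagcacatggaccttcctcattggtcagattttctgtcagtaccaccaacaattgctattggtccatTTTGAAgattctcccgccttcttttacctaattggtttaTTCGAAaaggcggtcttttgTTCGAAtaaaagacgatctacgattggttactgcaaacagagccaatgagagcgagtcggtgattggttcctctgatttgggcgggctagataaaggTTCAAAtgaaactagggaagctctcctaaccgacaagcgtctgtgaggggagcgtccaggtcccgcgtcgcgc
It lies at chr11:99024140-99024439 (- strand), with 4 matches beginning 179, 140, 120 and 23 bases upstream. Among the tested replication genes with a window, the 15 with an E2F match had a median log2 fold change of 0.31 (range -0.13 to 0.71) and the 20 without one had a median of 0.24 (range -0.28 to 0.76).

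Setting KO against WT libraries asks whether replication genes differ in lip tissue between the genotypes. None of the 42 tested replication genes passed an adjusted p of 0.05 in edgeR's quasi-likelihood test. Over all tested genes 4.38% passed as higher and 2.09% as lower. Most replication genes nevertheless had a positive log2 fold change, 38 of 42, with a median of 0.31 (range -0.28 to 0.76), while 48.0% of all tested genes were positive and their median was -0.02. In 5 of 42 genes the test gave an unadjusted p under 0.05, all of them with higher KO values, and 13.5% of all tested genes met that mark as higher. The 3 KO libraries lay above the 3 WT libraries in 4 replication genes and below them in 1, which is a smaller share than the 13.5% and 18.1% found over all tested genes. In the remaining 37 the groups overlapped. The authors' 2 tools, run on the same counts, each called 2 replication genes higher, Rfc1 and Rrm1, in edgeR's exact test and in DESeq2, against 7.76% and 8.93% of all genes called higher by these tests.

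**Figure D1:**
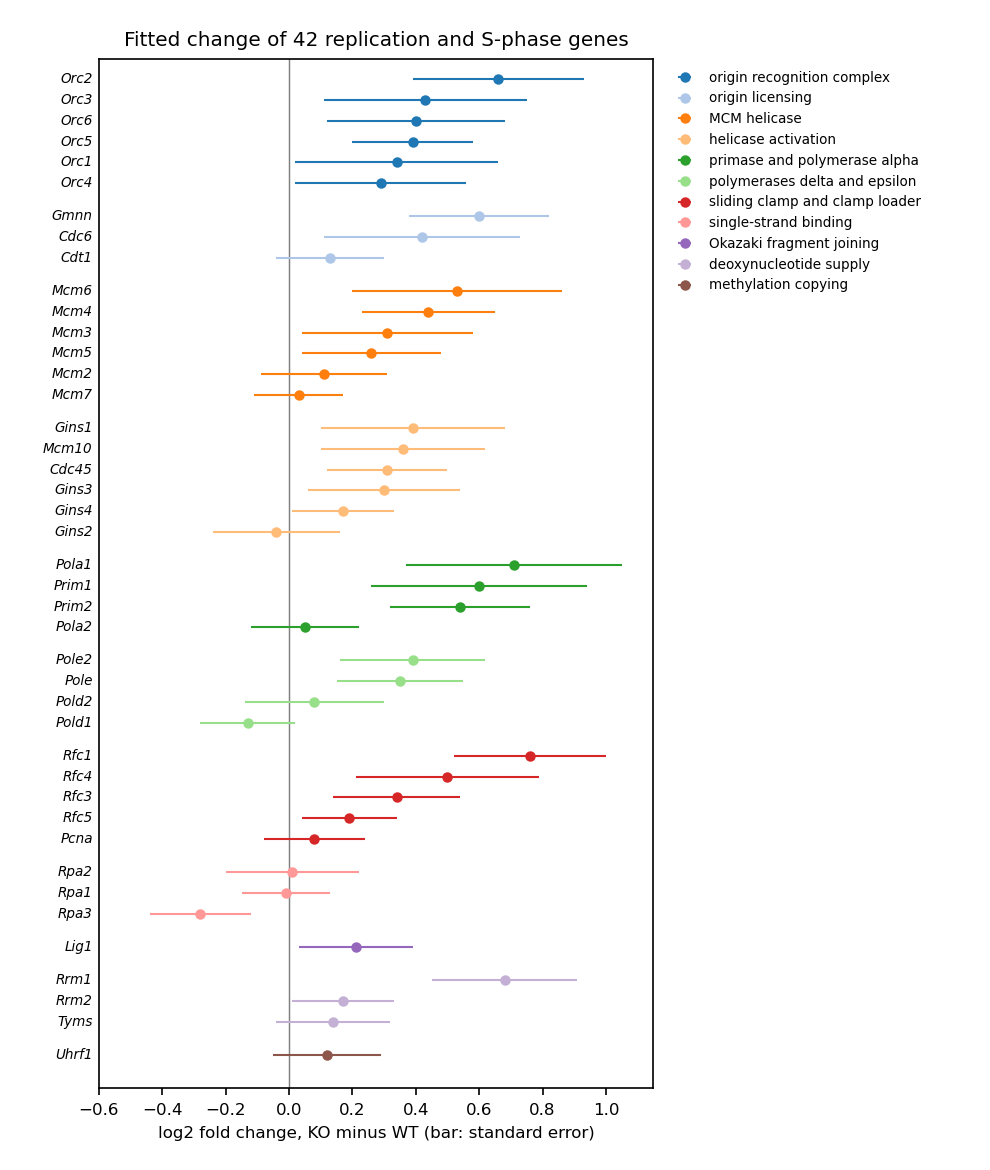
Fitted log2 fold change of each tested replication gene (KO minus WT, bars are standard errors), grouped and coloured by role. Of 42 points, 38 lie to the right of 0, and the polymerase alpha group and Rfc1 reach furthest, while the single-strand binding genes lie near or left of 0.

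The 5 genes with the lowest p belonged to 5 different roles. Rfc1 (chromosome 5, 65261850 to 65335670), the large subunit of the complex that loads the Pcna clamp, had 23.2, 31.9 and 35.8 CPM in WT1 to WT3 and 58.7, 59.5 and 35.8 CPM in KO1 to KO3. KO1 and KO2 stood well above the WT libraries, and KO3 was level with WT3. The log2 fold change of Rfc1 came to 0.76 with a standard error of 0.24 (n = 3 mice per genotype, adjusted p = 0.0893 in edgeR's quasi-likelihood test), and over the alternative settings the adjusted p lay between 0.0048 and 0.268. Rrm1 (chromosome 7, 102441695 to 102469771), the large subunit of ribonucleotide reductase, which makes deoxynucleotides, had 30.6, 61.5 and 49.0 CPM in WT and 75.1, 79.8 and 70.7 CPM in KO. All KO libraries were above all WT libraries, and WT1 was the lowest by far. That made a log2 fold change of 0.68 with a standard error of 0.23 and an adjusted p of 0.108, which lay between 0.04 and 0.283 over the alternatives.

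Gmnn (chromosome 13, 24751845 to 24761923) encodes geminin, the inhibitor of Cdt1 that keeps origins from being licensed again. It had 4.94, 7.06 and 5.35 CPM in WT and 10.4, 8.58 and 7.22 CPM in KO, so that KO3 was only just above WT2 (log2 fold change 0.60 ± 0.22, where ± gives the standard error in all such pairs for log2 fold changes, adjusted p = 0.12). Prim2 (chromosome 1, 33453810 to 33669795), the large primase subunit, had 5.99, 10.1 and 8.95 CPM in WT and 12.7, 11.2 and 12.3 CPM in KO. Its groups did not overlap either (log2 fold change 0.54 ± 0.22, adjusted p = 0.145). Orc2 (chromosome 1, 58462771 to 58505109), a core subunit of the origin recognition complex, had 11.1, 16.5 and 11.4 CPM in WT and 24.7, 23.9 and 13.1 CPM in KO. Here KO3 fell among the WT libraries (log2 fold change 0.66 ± 0.27, adjusted p = 0.154). Exons of Nif3l1 on the opposite strand cover 29.8% of the exonic bases of Orc2, and since the strand setting of the counting is not stated, reads of the pair may not be separated. Exons on the opposite strand cover none of the exonic bases of Rfc1, Rrm1, Gmnn or Prim2.

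**Figure D2:**
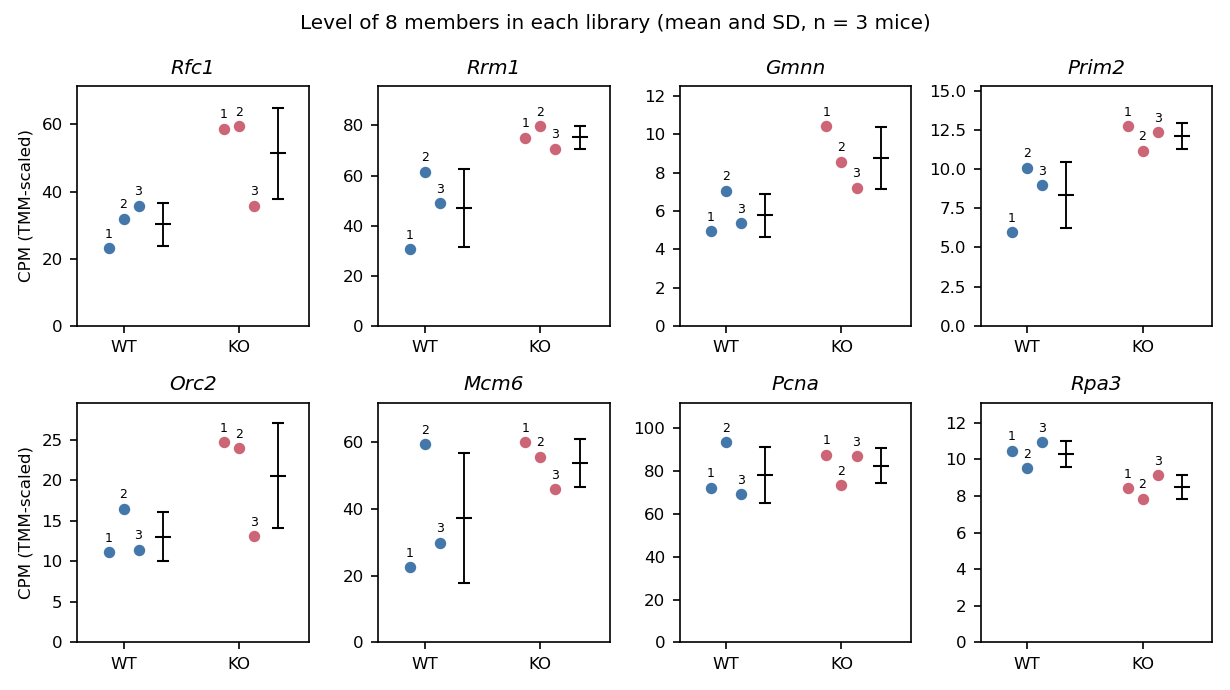
CPM of 8 replication genes in each library (numbered points, vertical axes from 0), with the mean and SD of the 3 mice of each genotype beside them. In Rfc1 and Orc2 the third KO library lies at the level of the WT libraries, in Mcm6 the second WT library lies at the level of the KO libraries, and Rpa3 is lower in all 3 KO libraries.

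The origin recognition complex had positive log2 fold changes in 6 of 6 subunits, from 0.29 to 0.66 with a median of 0.39, and Orc2 alone had an unadjusted p under 0.05. KO3 was the lowest KO library in all 6. Orc3 had 14.9, 24.3 and 19.5 CPM in WT, 33.2 and 31.1 CPM in KO1 and KO2 and 14.6 CPM in KO3. Orc4 had 25.4, 28.3 and 23.5 CPM in WT, 38.6 and 37.4 CPM in KO1 and KO2 and 18.4 CPM in KO3, the lowest of all 6 libraries. The complex summed to 74.4, 102.5 and 76.5 CPM in WT1 to WT3 and to 138, 128 and 72.1 CPM in KO1 to KO3 (WT 84.5 ± 15.7, KO 113 ± 35.4, SD, n = 3), so KO3 was the lowest library and KO1 the highest. Orc1, the subunit whose level changes with the cell cycle, was the least abundant replication gene tested, with 0.653 CPM per kb of exon in WT and 0.826 in KO.

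Of the licensing factors besides Gmnn, Cdc6, which helps load the helicase, had 4.03, 8.42 and 4.72 CPM in WT and 9.06, 8.19 and 5.62 CPM in KO (log2 fold change 0.42, adjusted p = 0.396). Its WT2 value exceeded 2 of the 3 KO libraries. Cdt1, the loader that geminin binds, had a log2 fold change of 0.13.

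The 6 MCM subunits form 1 ring, and in all 6 the WT libraries had the same order, with WT1 lowest and WT2 highest. Their sum was 188, 318 and 225 CPM in WT1 to WT3 and 291, 267 and 324 CPM in KO1 to KO3 (WT 244 ± 67.4, KO 294 ± 29.04, SD, n = 3). WT2 thus exceeded both KO1 and KO2. Log2 fold changes ran from 0.03 for Mcm7 to 0.53 for Mcm6, all positive and none with an unadjusted p under 0.05. Mcm4 had the lowest p of the ring, with 25.9, 44.4 and 31.9 CPM in WT and 43.6, 43.8 and 51.7 CPM in KO (log2 fold change 0.44 ± 0.21, adjusted p = 0.187). Mcm6 had 22.5, 59.3 and 29.8 CPM in WT and 59.8, 55.5 and 45.9 CPM in KO, which made the WT libraries differ by 2.64-fold among themselves. Without WT2, which was the highest WT library for this gene, Mcm6 was called (log2 fold change 1.10, adjusted p = 0.0384). It was the only replication gene called in that setting, for which the share over all tested genes is not given here. Mcm3 and Mcm5, with 48.3 and 71.4 CPM, were highest in KO3.

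Of the genes that activate the helicase, Cdc45 had 7.26, 10.3 and 7.74 CPM in WT and 9.88, 10.1 and 11.4 CPM in KO (log2 fold change 0.31 ± 0.19, adjusted p = 0.29). Mcm10 and the GINS subunits ranged from -0.04 for Gins2 to 0.39 for Gins1. Gse1 exons on the opposite strand cover 67.3% of the exonic bases of Gins2, so its counts are uncertain.

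Primase and polymerase alpha, which start each strand, had the highest median of any role with several genes, 0.57. Pola1, the catalytic subunit, had 6.86, 14.2 and 12.3 CPM in WT and 23.9, 19.2 and 11.3 CPM in KO (log2 fold change 0.71 ± 0.34, adjusted p = 0.199). Prim1, the catalytic primase subunit, had 9.00, 21.9 and 11.5 CPM in WT and 25.1, 23.7 and 15.5 CPM in KO (log2 fold change 0.60, adjusted p = 0.265). In both, KO3 fell within the WT range. Pola2, the accessory subunit, had a log2 fold change of 0.05.

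For the polymerases that copy most of the genome, Pole, the catalytic subunit of the leading-strand enzyme, had 13.1, 22.0 and 18.0 CPM in WT and 22.8, 23.2 and 21.6 CPM in KO (log2 fold change 0.35, adjusted p = 0.27). The catalytic and second subunits of polymerase delta, Pold1 and Pold2, had log2 fold changes of -0.13 and 0.08. Pcna, the clamp, was the most abundant replication gene per length, with 32.7 CPM per kb in WT and 34.4 in KO, and its libraries overlapped fully, with 72.3, 93.4 and 69.4 CPM in WT and 87.7, 73.3 and 87.0 CPM in KO (log2 fold change 0.08 ± 0.16, adjusted p = 0.767). A transcript of a processed copy, Pcna-ps2, matches Pcna at over 95% identity, so some reads of Pcna may have been lost or shared. The same holds for Cdc6, Mcm7, Rfc5, Rrm2 and Uhrf1, each of which has a near-identical copy elsewhere, for Pole2, which shares a stretch with Gm49384, and for Tyms, a stretch of which matches transcripts of many genes, Cd200r3 and Vmn1r229 among them. The clamp loader subunits other than Rfc1 ranged from 0.19 for Rfc5 to 0.50 for Rfc4.

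The single-strand binding complex, which coats unwound DNA in replication and in repair, had the lowest median of any role, -0.01, and Rpa1 and Rpa2 had log2 fold changes of -0.01 and 0.01. Rpa3, the smallest subunit, had 10.5, 9.52 and 10.9 CPM in WT and 8.44, 7.86 and 9.15 CPM in KO. It was the only replication gene with all KO libraries below all WT libraries (log2 fold change -0.28 ± 0.16, adjusted p = 0.261).

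Among the enzymes that finish or supply the new strand, Lig1, the ligase that joins Okazaki fragments, had 27.8, 38.5 and 27.0 CPM in WT and 34.5, 33.0 and 40.2 CPM in KO (log2 fold change 0.21, adjusted p = 0.454). Rrm2, the small subunit of ribonucleotide reductase, and Tyms, which makes thymidylate, had log2 fold changes of 0.17 and 0.14, against 0.68 for Rrm1. Uhrf1, which brings the maintenance methyltransferase to newly copied DNA, had 43.7, 63.5 and 50.8 CPM in WT and 50.6, 56.9 and 64.7 CPM in KO (log2 fold change 0.12, adjusted p = 0.655). Fen1, the flap endonuclease, was the 1 listed gene left untested, with 10, 14 and 11 counts in WT1 to WT3 and 13, 14 and 15 counts in KO1 to KO3. Exons of Gm10143 and Tmem258 on the opposite strand cover 84.2% of its exonic bases, so its counts are uncertain.

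The WT libraries differed more among themselves for the median replication gene than for the median tested gene, and the KO libraries did not. The highest WT library was 1.5 times the lowest in the median replication gene, against 1.3 times over all tested genes, and in KO the ratios were 1.33 and 1.37. This WT spread was not particular to these genes. The ratios were 1.56 in WT and 1.52 in KO for 51 mitosis genes, and 1.43 and 1.25 for 49 other replication genes, both described below. In those 49, WT1 was the lowest WT library in 29 and WT2 the highest in 32. WT1 was the lowest WT library in 33 of 42 genes and WT2 the highest in 38 of 42. Averaged over the 42 genes, log2 CPM relative to the mean of the 6 libraries was -0.41 in WT1, 0.17 in WT2 and -0.20 in WT3, and 0.24, 0.14 and 0.07 in KO1 to KO3. WT2 thus lay between KO1 and KO2. With WT2 set aside after its values were seen, all KO libraries were above both WT1 and WT3 in 27 of 42 genes, against 21.7% of all tested genes. Leaving out the WT library that was highest in most of these genes favours such a separation in them. The contrast with the 21.7% is therefore no support for a difference between the genotypes. WT2 was above the lowest KO library in 38 of 42, against 75.7% of all tested genes. Without WT2 the median log2 fold change was 0.58, and without WT1 it was 0.14. WT1 was also the library with the oral keratins Krt4 and Krt13 at 1987 and 2805 CPM, against 9.40 to 115 CPM in the other 5 libraries, and the part of this in the result was not tested.

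**Figure D3:**
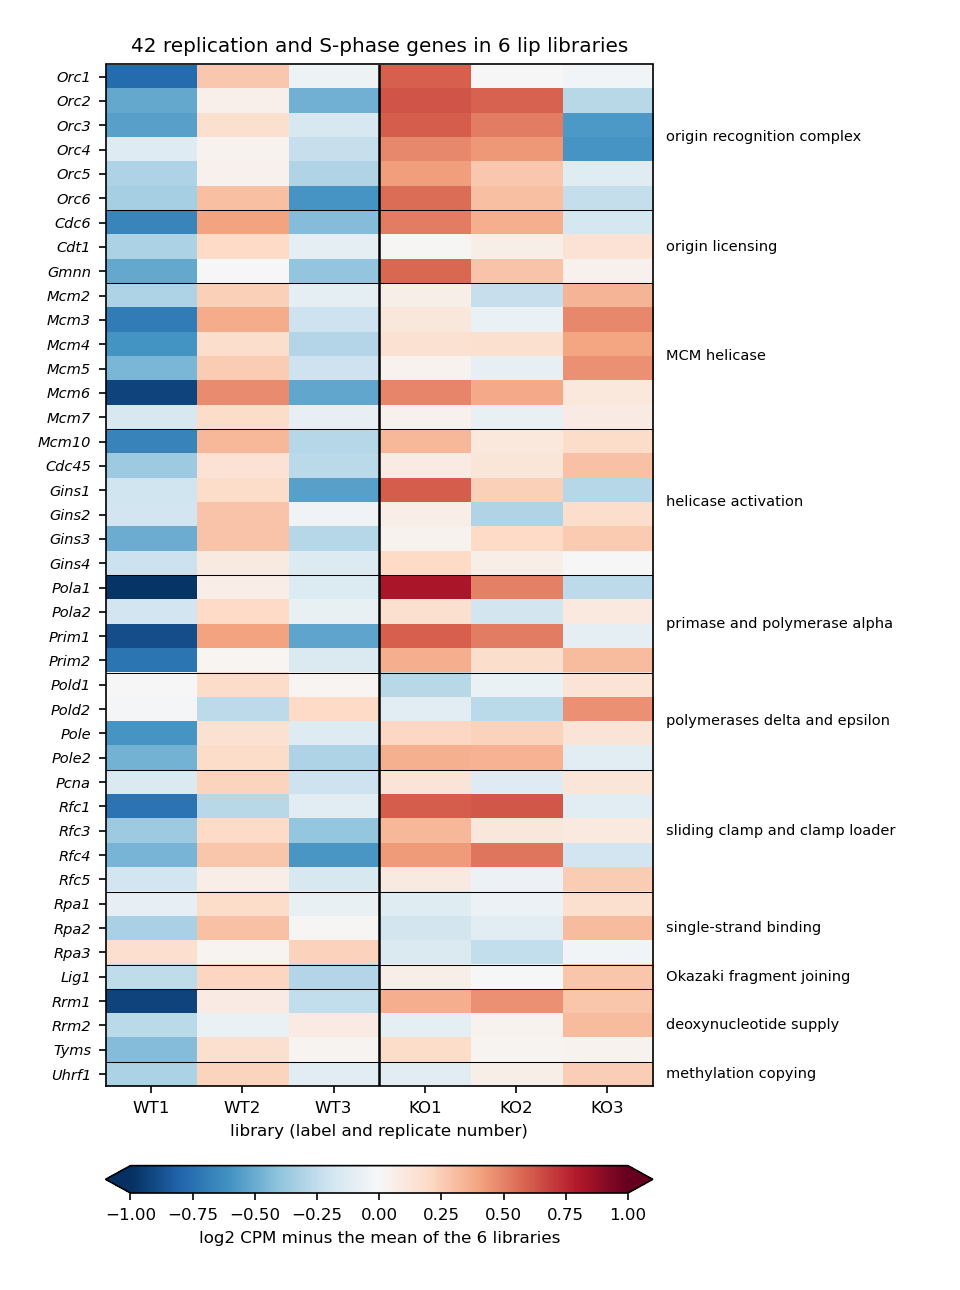
Log2 CPM of 42 replication genes in each library relative to the mean of the 6 libraries (colour, red above and blue below), in rows by role. WT1 is the lowest WT library in 33 of 42 rows and WT2 the highest in 38, and KO3 is low for the origin recognition genes and high for most MCM genes.

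KO3 divided the replication genes. It was the highest KO library in 18 and the lowest in 19 of the 42. When KO3 was left out, 8 replication genes were called, all higher: Rfc1, Orc2, Orc4, Orc3, Pola1, Gmnn, Orc5 and Rrm1, with adjusted p-values from 0.0048 to 0.0469, against 16.9% of all tested genes called higher in that setting. In that fit the log2 fold changes of Orc2, Orc3 and Orc4 were 0.91, 0.72 and 0.57. The median over the list was 0.31, as with KO3, since genes such as Mcm5 (0.09 without KO3, 0.26 with it) moved the other way.

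The division moved with base composition. Over the 42 genes the difference between KO3 and the mean of KO1 and KO2 in log2 CPM rose with the GC content of the longest transcript (r = 0.68 across genes, which share libraries and are not independent), as it did over all tested genes with a GC value (r = 0.52). KO3 was the lowest KO library in 14 of the 21 replication genes with the lower GC content (36.8% to 47.9%) and in 5 of the 21 with the higher (48.4% to 60.7%). The log2 fold change between the genotypes fell with GC content, over the 42 genes (r = -0.48) and over all (r = -0.25), where the eighth of genes with the lowest GC had a median of 0.30 and the eighth with the highest a median of -0.26. The median log2 fold change was 0.40 in the 21 replication genes with lower GC and 0.17 in the other 21. After the trend of each library on GC content was removed, a setting chosen after the data had been seen, these medians were 0.26 and 0.31, the median over the list was 0.28, and again none of the 42 passed, while 6.75% of all tested genes were called higher. In this setting Orc4 had a log2 fold change of -0.06 and Rfc1 of 0.64.

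**Figure D4:**
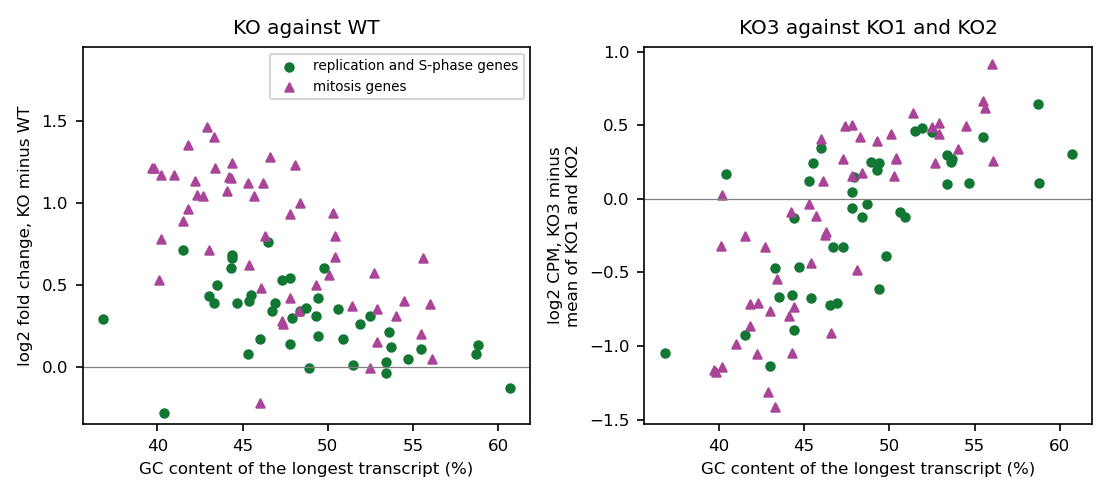
Each point is a replication gene (green circles) or a mitosis gene (purple triangles), placed by the GC content of its longest transcript; the vertical axes give the log2 fold change between genotypes (left) and the log2 CPM of KO3 minus the mean of KO1 and KO2 (right). Points fall from left to right in the left panel (r = -0.48 and -0.66) and rise in the right panel (r = 0.68 and 0.80).

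The mitosis genes stand beside the replication genes as the later part of the division cycle, and many of them rose. Of 51 genes of spindle, kinetochore, cytokinesis and mitotic kinases, 13 were called higher, or 25.5%, and none lower. Over all tested genes these shares were 4.38% and 2.09%. The median log2 fold change of the mitosis genes was 0.80. The KO libraries lay above all WT libraries in 26 of the 51, or 51.0%, against 13.5% of all tested genes. The 6 with the lowest p were Ccnb1, Kif2c, Ckap2, Dlgap5, Prc1 and Anln. Ccnb1, the cyclin that starts mitosis, had 18.1, 19.7 and 25.2 CPM in WT and 43.2, 52.7 and 44.9 CPM in KO (2.23-fold, log2 fold change 1.16 ± 0.17, adjusted p = 0.00634). Kif2c, a kinesin that takes microtubules apart, had 12.7, 10.8 and 14.5 CPM in WT and 22.5, 24.2 and 25.9 CPM in KO (1.92-fold, adjusted p = 0.0147). The spindle protein genes Ckap2, Dlgap5 and Prc1 rose 2.06-fold, 2.17-fold and 2.05-fold (adjusted p = 0.0167, 0.0246 and 0.0257), and Anln, a scaffold of the cleavage furrow, rose 2.17-fold (adjusted p = 0.0277). Spindle motors and microtubule proteins were called in 8 of 13, whereas none of the 15 checkpoint and kinetochore genes was, although 10 of these had an unadjusted p under 0.05. The count of 13 changed with the library left out: it was 33 without KO3, 4 without KO1, 3 without WT2, and 1 without WT1 or without KO2. Each of these fits, also the one without KO3, had fewer mice, and the part of this in the counts was not tested. With 1 library left out the median log2 fold change stayed between 0.74 and 0.98. Without KO3, 16.9% of all tested genes were called higher and 16.2% lower. For the other left-out libraries this share is not given here, so those counts cannot be set against all tested genes.

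WT2 set the lists apart: it was the highest WT library for 38 of 42 replication genes, and it was the lowest for 29 of 51 mitosis genes. The mean log2 CPM of the mitosis genes relative to the 6-library mean was -0.52, -0.59 and -0.04 in WT1 to WT3 and 0.30, 0.57 and 0.28 in KO1 to KO3. Taken as mitosis minus replication, the libraries had -0.10, -0.76 and 0.17 in WT and 0.06, 0.43 and 0.20 in KO. WT2 was the low one, and KO1 lay below WT3, so the genotypes overlapped in this difference. With the GC trend removed the values were -0.06, -0.76 and 0.20 in WT and -0.01, 0.37 and 0.25 in KO. No p-value is given for these averages, because the genes were chosen as lists.

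**Figure D5:**
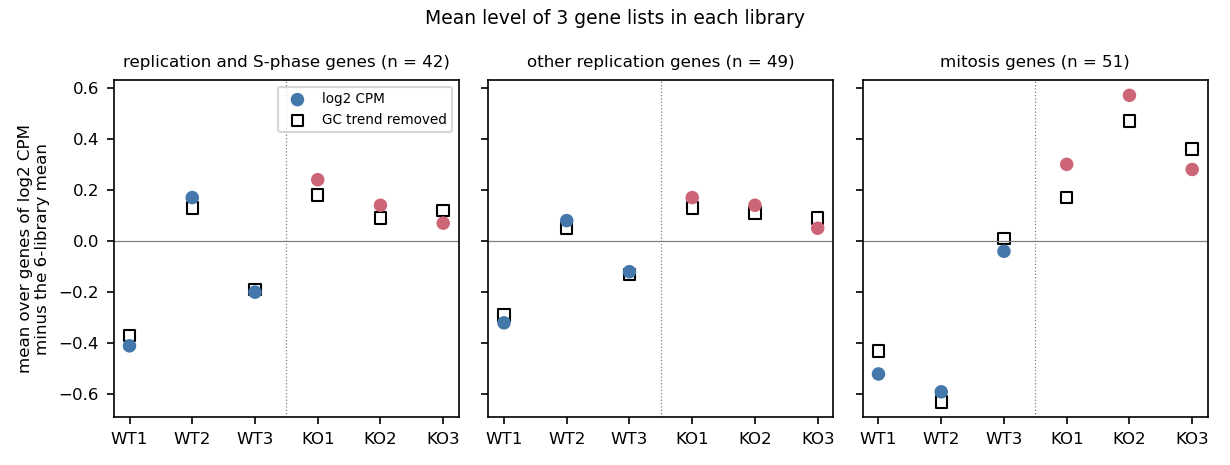
Mean over the genes of each list of log2 CPM minus the 6-library mean (vertical axis), by library, as measured (filled circles, blue for WT and red for KO) and after the GC trend was removed (open squares). For the replication genes WT2, at 0.17, lies within the KO libraries, whereas for the mitosis genes it is the lowest library at -0.59.

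A further 49 replication genes, of origin firing, fork protection, chromatin assembly and S-phase entry, had a median log2 fold change of 0.20. Of these, 34 were positive, or 69.4%, against 48.0% of all tested genes. Only 1 was called, as higher, or 2.04%, a smaller share than the 4.38% of all tested genes called higher. That gene was Mcm9, an MCM relative that acts with Mcm8 in repair by recombination rather than in the replicative ring. It had 12.2, 14.8 and 11.2 CPM in WT and 66.5, 64.8 and 61.6 CPM in KO, so that every KO library lay far above every WT library (5.06-fold between the genotypes, log2 fold change 2.34 ± 0.15, adjusted p = 8.54e-05), and it was called in each alternative setting. Mcm9 (chromosome 10, 53536315 to 53630439) contains Asf1a on its opposite strand, and Asf1a had 16.3, 16.2 and 14.4 CPM in WT and 21.3, 19.1 and 15.5 CPM in KO (adjusted p = 0.34). Mcm8, its partner, had a log2 fold change of 0.62 (adjusted p = 0.272), and no subunit of the replicative MCM ring exceeded 0.53.

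The next in order were Dbf4, the activator of the Cdc7 kinase that fires origins, with 10.7, 12.3 and 14.9 CPM in WT and 21.5, 22.3 and 17.0 CPM in KO (log2 fold change 0.68, adjusted p = 0.0679), and Supt16, a histone chaperone of the fork, with 25.7, 41.4 and 41.9 CPM in WT and 73.1, 74.8 and 47.4 CPM in KO (0.84, adjusted p = 0.0782). Wdhd1, which ties polymerase alpha to the helicase, had a log2 fold change of 0.80 (adjusted p = 0.125), Topbp1, which helps to activate the helicase and the checkpoint, 0.69 (adjusted p = 0.129), and Clspn, a checkpoint mediator at the fork, 0.65 (adjusted p = 0.135). Without KO3, 7 of the 49 were called, 6 higher and 1 lower, against 16.9% of all tested genes called higher and 16.2% called lower in that setting. None of the 9 S-phase entry regulators passed edgeR's quasi-likelihood test, and 2 had an unadjusted p under 0.05, 1 higher and 1 lower. Their log2 fold changes were negative in 7 and positive in 2, with a median of -0.11, beside a median of -0.02 and 48.0% positive over all tested genes. E2f1, an activator of replication genes, had 10.5, 16.9 and 13.7 CPM in WT and 10.2, 8.55 and 12.0 CPM in KO (log2 fold change -0.42, adjusted p = 0.241), and Cdc25a, the phosphatase that activates Cdk2, had 21.5, 20.1 and 20.1 CPM in WT and 15.8, 15.8 and 17.5 CPM in KO, without overlap (-0.33, adjusted p = 0.154). Cyclin E1, Ccne1, had a positive value, 0.45 (adjusted p = 0.163).

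Of the cell type markers tested, 4 were called, 2 of skeletal muscle, 1 of hair follicle and 1 of suprabasal keratinocytes. Over all tested genes, 4.38% were called higher and 2.09% lower. The 8 skeletal muscle markers had negative log2 fold changes in 8 of 8, with 2 called lower and sums of 8254 to 10683 CPM in WT and 3579 to 7014 CPM in KO. The 8 hair follicle markers were negative in 8 of 8, with 1 called lower and sums of 5727 to 7219 CPM in WT and 3739 to 4946 CPM in KO. The 7 fibroblast markers were negative in 7 of 7 with none called, and KO3, at 6733 CPM, was within the WT range of 6420.0 to 8403 CPM while KO1 and KO2 had 2762 and 3526 CPM. The 7 basal keratinocyte markers, 3 positive and 4 negative with none called, had a median of -0.04. The 8 suprabasal keratinocyte markers were positive in 5 and negative in 3 (Krt4, Krt13 and Lor), with a median of 0.44, and Ivl was called higher. Their sum, to which Krt1 and Krt10 gave the most counts, was 18816 to 28251 CPM in WT and 29798 to 45407 CPM in KO, whereas their mean log2 CPM relative to the 6-library mean was highest in WT1, lowest in WT3 and overlapped between the genotypes. The 7 macrophage and 6 endothelial markers, with none called, had medians of -0.14 and -0.22. The 5 tested T cell markers were all positive with a median of 0.67 and none called, and Cd3d and Cd8a were too low to be tested. The part of these cell types in the values of the replication genes was not tested.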

How the data were processed

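Lip RNA of 3 WT and 3 KO mice was sequenced as paired-end libraries. Per the labels and the study's methods, the authors mapped reads to GRCm38 with TopHat2 2.0.8 and Bowtie2 2.1.0 and deposited raw counts per gene, which HTSeq-count made from uniquely mapped reads. The strand setting is not given in the sources used here. All 6 count columns were used. A gene was kept where 3 or more libraries reached 1 CPM, and kept genes held 99.8% of the counts of each library. Total counts of 20164081 to 29491767 bear on the counting error, and floors of 3 counts cover that error only, not the variation between mice. Genotypes were compared with edgeR 4.0.16 in R 4.3.3 (TMM, glmQLFit with legacy=FALSE, glmQLFTest), with Benjamini-Hochberg adjustment over all tested genes and a threshold of 0.05. The code was tested on simulated data.

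Gene positions, lengths and GC content come from GENCODE annotation of GRCm38, which matched 26112 of 26814 symbols. The replication genes and all other lists were chosen with earlier results of these data known. Values in every library are given for replication genes with an unadjusted p under 0.05 and for at least 1 gene of each role. The 6 genes with the lowest p of the mitosis and other replication lists are named, the first 2 or 3 with values in every library. Other genes given by value were picked after their values were seen. Alternatives were edgeR's exact test, DESeq2 1.42.0, 3 other scalings, 2 other filters, a replicate block, removal of the trend on gene length (lowess span 0.3) and each library left out. Removal of a GC trend was added after the data had been seen. Transcripts matching at 95% identity or more over 200 bases were listed as near-identical copies. Figures used Python 3.11.15 and matplotlib 3.10.9.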

Additional observations from a re-analysis of the deposited data

How the results depend on the processing

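No replication gene was called in 8 of the 10 settings besides left-out libraries, and their median log2 fold change stayed positive in all of them, between 0.26 and 0.36. EdgeR's exact test and DESeq2 called 2 replication genes each, 4 other replication genes each, and 30 and 31 mitosis genes. Without a filter 23 mitosis genes were called, and with the GC trend removed 20. With 1 library left out, replication genes called ranged from 0 to 8, other replication genes from 1 to 7 and mitosis genes from 1 to 33. The highest counts came without KO3, where 16.9% of all tested genes were called higher and 16.2% lower. This share is not given here for the other left-out libraries. Medians then ranged from 0.14 to 0.58, 0.09 to 0.37 and 0.74 to 0.98. Single genes were followed for a set of 23. It held the replication gene with the lowest p in each role and the lowest-p genes of the mitosis and other replication lists. Of these 23 genes 7 were called. The 7 stayed called in 96 of their 112 values under the alternatives, while 16 values lost the call. The other genes of the set stayed uncalled in 238 values and were called in 18. In 0 of the 368 values of this set did the direction change. Some genes outside the set did change direction. With the GC trend removed, the log2 fold change of Orc4 went from 0.29 to -0.06 and that of Pcna from 0.08 to -0.05. Without KO3, that of Mcm2 went from 0.11 to -0.04 and that of Pold2 from 0.08 to -0.16. All 16 losses came with a library left out. The cause of these changes was not tested.

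The labels do not say whether a shared replicate number marks a pair of mice. Deviations from the group means of same-numbered libraries correlated at -0.192, 0.293 and 0.312, and WT1 and WT2 correlated best with KO libraries of other numbers. With 3 libraries per genotype the deviations are tied to each other, so these correlations cannot decide whether mice were paired. With the replicate block 0 replication genes, 1 other replication gene and 10 mitosis genes were called, with a median of 0.34 for the replication genes. Depth limits Fen1, Orc1 and the T cell markers most.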
